A study of Mus musculus with 5 samples.

Results

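Transcripts of 6 genes that mark or equip regulatory T cells, Foxp3, Il2ra, Ikzf2, Ctla4, Tnfrsf18 and Capg, were followed in single T cells of the mouse brain. The genes were taken by name, as 6 of the 15952 genes with at least 1 unique molecular identifier (UMI, the tag that counts 1 captured RNA molecule) in the cells kept. All 6 had UMIs. At least 1 UMI of any of them was found in 310 of 1482 cells, 20.9% (95% exact binomial interval 18.9 to 23.1), and Foxp3 itself in 18 cells, 1.21% (0.721 to 1.91).

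The cells were sorted 1 per well from brain tissue of 5 mice, as CD45+ and TCRβ+ cells negative for CD11b, and sequenced by a plate-based method that tags RNA per well. All 5 mice carried the label Grl1loxP/loxP, that is glucocorticoid receptor alleles flanked by loxP sites, and all had foot-shock stress, with cells taken at day 14. In 3 mice the cell-permeable recombinase TAT-CRE was injected into the brain ventricles (TAT-CRE 207, 208 and 215, aged 18, 18 and 19 weeks), meant to delete the receptor in the choroid plexus. The controls received PBS (PBS 216 and 218, aged 19 and 16 weeks, also labelled Sham). There was no unstressed group. Libraries are counted as 1 mouse each, though the labels do not say whether animals were pooled, so p-values measure the spread between these libraries.

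Regulatory T cells restrain other T cells and support tissue repair, and a small population is known in the brain. Their identity rests on the transcription factor Foxp3, which with partners such as Helios, the product of Ikzf2, sustains expression of receptors on the cell surface. Among these are CD25, the alpha chain of the high-affinity interleukin 2 receptor (Il2ra), CTLA-4, an inhibitory receptor that competes with CD28 for its ligands (Ctla4), and GITR, a costimulatory receptor of the TNF receptor family (Tnfrsf18). Capg encodes an actin filament capping protein of the gelsolin family, best known from macrophages. Apart from Foxp3, these genes are also transcribed in conventional T cells, above all after activation, so a UMI of 1 of them does not make a cell regulatory.

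In the GENCODE M21 annotation of the files' build (mm10, GRCm38) all 6 are protein-coding genes. Foxp3 lies at X:7573644-7595245 on the plus strand, Il2ra at 2:11642807-11693193 (plus), Ikzf2 at 1:69531214-69687245 (minus), Ctla4 at 1:60887000-60915832 (plus), Tnfrsf18 at 4:156026164-156028895 (plus) and Capg at 6:72544391-72562983 (plus). Other annotated genes overlap some of them, and whether counting used the strand is not given. The pseudogene Rpl18-ps1, inside Ctla4 on the same strand, had 1284 UMIs and was found in 49.5% of cells with Ctla4 and 48.1% of the rest. Over Foxp3 lie Flicr, Ppp1r3f and Ccdc22, with 5, 7 and 5 UMIs, none of them in a cell with Foxp3. The antisense gene Gm16008 over Tnfrsf18 had 12 UMIs, none in a cell with Tnfrsf18.

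The start regions of the 6 genes were searched for motifs of factors that act on regulatory T cell genes. The search is a description of sequence, and a link to the shared detection given further on was not tested. RefSeq windows of 300 bases (250 before to 50 after the start, GRCm38.p6) were available for 5 of 6 members, with 2 windows for Foxp3. Searched on both strands were a forkhead motif (TGTTTNC), a STAT motif (TTCNNNGAA) and an NFAT motif (GGAAAA), which 20.5%, 8.30% and 23.4% of all 32851 windows hold. One Foxp3 window held all 3 motifs, overlapping each other 139 to 143 bases before the start. Ctla4 and Tnfrsf18 each held an NFAT match, 145 and 196 bases before the start. Tnfrsf18 also held a STAT match 99 bases before its RefSeq start, at 4:156026223-156026231, which lies in an annotated exon of Tnfrsf18 in GENCODE and is not shown. The windows of Il2ra, Capg and the other Foxp3 start held no match of these letters. The matched stretches follow on the plus strand, which is the strand of the genes, with the matched letters in capitals. They lie at X:7580310-7580382, within an exon of the noncoding gene Flicr, at 1:60908850-60908915 and at 4:156026096-156026161, both outside annotated exons.
Foxp3: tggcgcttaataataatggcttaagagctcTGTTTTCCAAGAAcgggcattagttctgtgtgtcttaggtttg
Ctla4: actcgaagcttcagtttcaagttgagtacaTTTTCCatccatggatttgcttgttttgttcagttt
Tnfrsf18: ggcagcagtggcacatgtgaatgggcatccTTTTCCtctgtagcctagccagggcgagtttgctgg
In Ctla4 and Tnfrsf18 the capitals are the NFAT motif read on the other strand; in Foxp3 they cover the 3 overlapping motifs.

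A minimum of 400 UMIs (spike-ins not counted) and a limit of 30% mitochondrial UMIs left 1482 of 1900 wells labelled with 1 cell, 274 to 311 per mouse. Median depth was 993 to 2660 UMIs per cell, lowest in TAT-CRE 208 and highest in PBS 218. TAT-CRE 208 stood apart also in its share of ribosomal RNA genes, 28.3% of UMIs against 43.9% to 48.0%. The libraries share the same 384 well barcodes, as the plates do by design; the 18 cells with Foxp3 carried 18 different ones. T cell markers summed to 3698 to 5110 UMIs per 1000000 UMIs (CPM) in TAT-CRE mice and 4024 to 4660 in PBS mice, so the labelled cell type was present in each library. Of 20 empty wells none had a UMI of a member, which allows a share of up to 15.0%. Limits from a count of 0 and intervals cover counting error only.

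Foxp3 UMIs came from 3 of the 5 mice. TAT-CRE 207, 208 and 215 had 0, 15 and 23 UMIs, in 0, 7 and 8 cells, and PBS 216 and 218 had 0 and 4, in 0 and 3 cells. The groups overlapped, since TAT-CRE 207 was at 0 like PBS 216. No UMI in 311 cells of TAT-CRE 207 and 296 of PBS 216 allows shares of cells with a Foxp3 UMI of up to 0.965% and 1.01%, which does not limit the share of cells that express it. Of the 18 cells 10 had a single Foxp3 UMI and 4 had at least 5, with at most 6 in a cell. Their median depth was 1385 UMIs, against 1681 in cells without Foxp3.

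Ikzf2 had 37, 15 and 26 UMIs in TAT-CRE 207, 208 and 215 (18, 7 and 8 cells) and 19 and 57 in PBS 216 and 218 (7 and 14 cells). As CPM these were 53.4, 41.4 and 44.2 against 34.2 and 67.9. PBS 216 was lowest and PBS 218 highest, so the TAT-CRE mice lay between the PBS mice. In TAT-CRE 208 a single cell held 46.7% of the Ikzf2 UMIs.

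For the receptors, Il2ra and Tnfrsf18 were the members whose CPM did not overlap between the groups. Over all genes tested, all TAT-CRE mice lay above both PBS mice for 10.3% and below both for 7.22%. Il2ra had 21, 20 and 36 UMIs in TAT-CRE 207, 208 and 215 (6, 7 and 10 cells) and 3 and 16 in PBS 216 and 218 (2 and 8 cells). Its levels of 30.3, 55.2 and 61.2 CPM all lay above 5.41 and 19.1 CPM. Few cells carried these UMIs: 1 cell held 17 of the 36 in TAT-CRE 215, and without it that mouse was at 32.4 CPM, still above both PBS mice.

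Ctla4 had 74, 31 and 63 UMIs in TAT-CRE 207, 208 and 215 (32, 14 and 20 cells) and 35 and 75 in PBS 216 and 218 (12 and 19 cells). At 107, 85.5 and 107 CPM against 63.1 and 89.4 CPM, TAT-CRE 208 lay between the PBS mice and the groups overlapped. Tnfrsf18 had 53, 34 and 79 UMIs (23, 13 and 24 cells) against 31 and 64 (16 and 19 cells). Its levels were 76.6, 93.8 and 134 CPM against 55.9 and 76.3 CPM; TAT-CRE 207 and PBS 218 were nearly equal, and outside the ribosomal RNA genes the groups overlapped. Capg had 29, 64 and 63 UMIs (14, 19 and 22 cells) against 39 and 71 (15 and 21 cells). TAT-CRE 207 was lowest of all mice at 41.9 CPM and TAT-CRE 208 highest at 177 CPM, on either side of PBS 216 and 218 at 70.3 and 84.6 CPM.

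**Figure D1:**
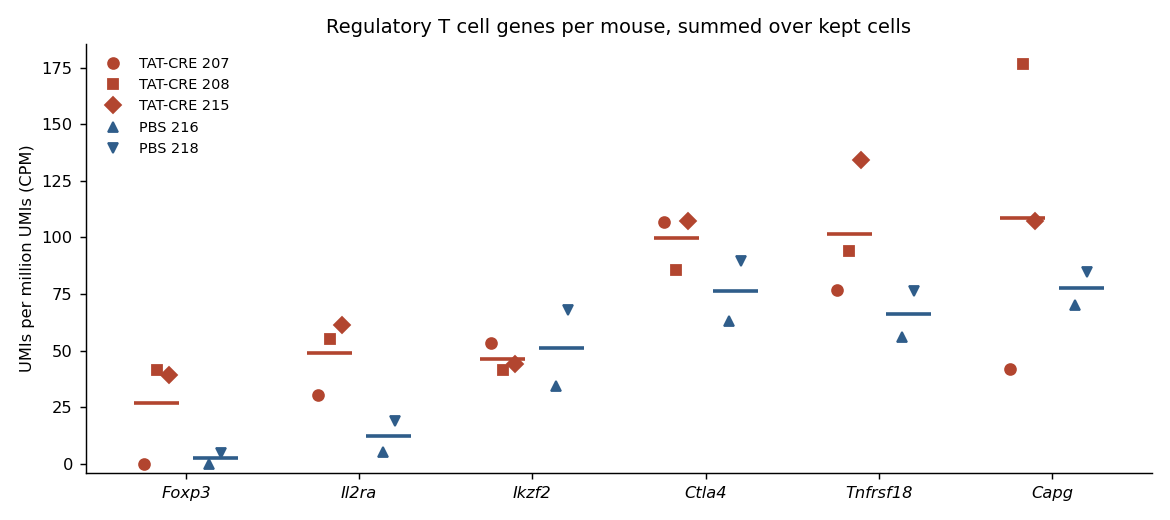
Level of each gene in CPM (linear axis), summed over the kept cells of a mouse; symbols are mice, red TAT-CRE (n = 3), blue PBS (n = 2), and bars are group means. Il2ra and Tnfrsf18 show no overlap between the groups. Over all genes tested, all TAT-CRE mice lay above both PBS mice for 10.3% and below both for 7.22%. Foxp3 is at 0 in 1 mouse of each group and Capg spans 41.9 to 177 CPM within the TAT-CRE mice.

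Whether these genes differed between TAT-CRE and PBS mice was tested on summed counts over all genes. No member passed edgeR's quasi-likelihood test, and 0 of 6341 genes (0%) were called at an adjusted p of 0.05; 239 genes had an unadjusted p under 0.05, and DESeq2 called 1 gene, Ifit3. Il2ra stood at 48.9 ± 16.4 CPM (SD, n = 3) against 12.2 ± 9.66 (SD, n = 2), with a log2 fold change of 1.86 ± 0.70 (SE), an unadjusted edgeR p of 0.0196 and an adjusted p of 0.999. Foxp3 stood at 26.8 ± 23.3 against 2.38 ± 3.37 CPM, with a log2 fold change of 3.12 ± 1.56 (SE, edgeR adjusted p = 0.999), and the 4 UMIs of the PBS group came from PBS 218. The log2 fold changes of Tnfrsf18, Ctla4, Capg and Ikzf2 were 0.57 ± 0.41, 0.34 ± 0.38, 0.32 ± 0.45 and -0.19 ± 0.49 (SE), each with an edgeR adjusted p of 0.999. Leaving out 1 mouse moved the folds that rest on few UMIs: Il2ra was at 3.01 without PBS 218 and 1.31 without PBS 216, and Foxp3 at 2.33 without PBS 216 and 3.71 without TAT-CRE 207. Without PBS 218 the PBS group had no Foxp3 UMI, so no fold is given, and with no mitochondrial limit Foxp3 was at 2.51. Over their alternatives the adjusted p of the 6 genes ran from 0.856 (Il2ra without PBS 218) to 1.00. The median log2 fold change of the 6 was 0.46, against 0.00 over all genes tested.

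All TAT-CRE mice lay above both PBS mice for 2 of the 6 genes, Il2ra and Tnfrsf18, and this was so for 10.3% of all genes tested, with 7.22% below. An exact two-sided permutation test of 3 against 2 mice cannot give a p under 0.1. For CPM it gave 0.2 for Il2ra and for Tnfrsf18, and 0.3 to 0.8 for the other 4. A summed level cannot tell more cells with a transcript from more transcript per cell, so shares of cells were compared too. They were taken after thinning each cell to 400 UMIs, as the expected share with a UMI. The thinned share of cells with Ctla4 was 3.21 ± 0.137% (SD, n = 3) in TAT-CRE and 1.99 ± 0.643% (SD, n = 2) in PBS mice, higher in 3 of 3 mice, with an exact permutation p of 0.1, the smallest possible and unadjusted over the 6 genes. Unthinned it was 7.21 ± 2.87% against 5.49 ± 2.04%, with overlapping groups (exact permutation p = 0.5). Cells with any of the 6 genes made up 11.2 ± 1.40% against 8.01 ± 1.70% after thinning (exact permutation p = 0.2) and 22.1 ± 2.83% against 19.1 ± 6.01% before (exact permutation p = 0.6). Among the TAT-CRE mice the lowest unthinned share, 19.1%, was in the shallowest mouse, TAT-CRE 208 (median 993 UMIs). The lowest of all mice, 14.9%, was in the deeper PBS 216 (median 1410 UMIs). Thinned Il2ra stood at 1.27 ± 0.516% against 0.430 ± 0.450% (exact permutation p = 0.3). The groups overlapped, with TAT-CRE 207 at 0.7476% and PBS 218 at 0.7482%. Unthinned Il2ra was at 2.53 ± 0.739% against 1.80 ± 1.59%, also with overlapping groups (exact permutation p = 0.5). Thinned Ikzf2 stood at 1.54 ± 0.651% against 1.54 ± 0.420%.

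Genes of smallest unadjusted p in that fit, none of which passed, were Ifit3, Ifi27l2a and Cxcl10 higher (log2 fold change 2.84, 1.20 and 4.95) and H2-K2, Cd160 and Nemf lower (-2.22, -2.36 and -2.86) in TAT-CRE mice. By edgeR, Ifit3 had an adjusted p of 0.372 and each of the other 5 one of 0.999. None belongs to the gene lists below.

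The pathway around the members was read from 8 lists, none of which had a gene called between the groups. For the ligands, Il2, the cytokine that the Il2ra chain binds, was the sole one of 4 that passed the filter on low counts, with a log2 fold change of 2.28 (edgeR adjusted p = 0.999). Among 8 tested genes of interleukin 2 receptor signalling 4 stood higher and 4 lower, with a median log2 fold change of -0.05. The partner chains Il2rb and Il2rg were at -0.39 and -0.11 and the feedback inhibitor Socs3 at 1.13. For inhibitory receptors 6 of 6 stood higher with a median of 0.55, from Tigit at 0.35 to Klrg1, a receptor of effector cells, at 1.54. For the TNF receptor family and costimulation 4 of 4 stood higher with a median of 0.52, among them Icos at 0.65 and Tnfrsf4, which encodes OX40, at 0.53. For transcription factors 4 of 15 stood higher, with a median of -0.19. Suppressive effectors (5 of 6 higher, median 0.65), homing and tissue genes (5 of 6, median 0.33) and actin-capping relatives of Capg (2 of 6, median -0.11) made up the rest. Over all genes tested 50.2% stood higher.

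The next comparison set cells with Cd4 against cells with Cd8, the coreceptors of helper and cytotoxic T cells. Cells with a Cd4 UMI and none of Cd8a or Cd8b1 are called Cd4 cells (85 cells), those with a Cd8a or Cd8b1 UMI and no Cd4 are called Cd8 cells (630), 25 had both and 742 had neither. A UMI of any of the 6 genes was found in 40.0% of Cd4 cells (29.5 to 51.2), 18.1% of Cd8 cells (15.2 to 21.3), 36.0% of cells with both and 20.6% of cells with neither. Their median depths were 1717, 1986, 2998 and 1316 UMIs. Within mice the median depth of Cd4 cells was above that of Cd8 cells in 3 of 5, with 3987 against 3088 UMIs in PBS 218, and below it in TAT-CRE 215 (1614 against 1920) and PBS 216 (1559 against 1612). The surface receptors and Capg were found more often in Cd4 cells, and Ikzf2 was not.

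Ctla4 had a UMI in 15.3% of Cd4 cells (8.40 to 24.7) and 5.71% of Cd8 cells (4.03 to 7.82). It was higher in Cd4 cells in 5 of 5 mice, from 5.26% against 3.95% in TAT-CRE 208 to 21.7% against 2.40% in TAT-CRE 215. Capg was found in 12.9% against 4.29% and was higher in 5 of 5 mice. Tnfrsf18 was found in 12.9% against 6.19% and was higher in 4 of 5, being at 0% of 19 Cd4 cells in TAT-CRE 208. Il2ra was found in 5.88% (1.94 to 13.2) against 1.27% (0.550 to 2.49), higher in 3 mice and lower in PBS 218. Ikzf2 was found in 2.35% against 3.65%, with Cd4 cells holding it in TAT-CRE 207 alone. Foxp3 had a UMI in 2.35% of Cd4 cells (0.286 to 8.24), 0.476% of Cd8 cells (0.0983 to 1.39), which are expected to lack it, and 1.75% of cells with neither coreceptor.

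**Figure D2:**
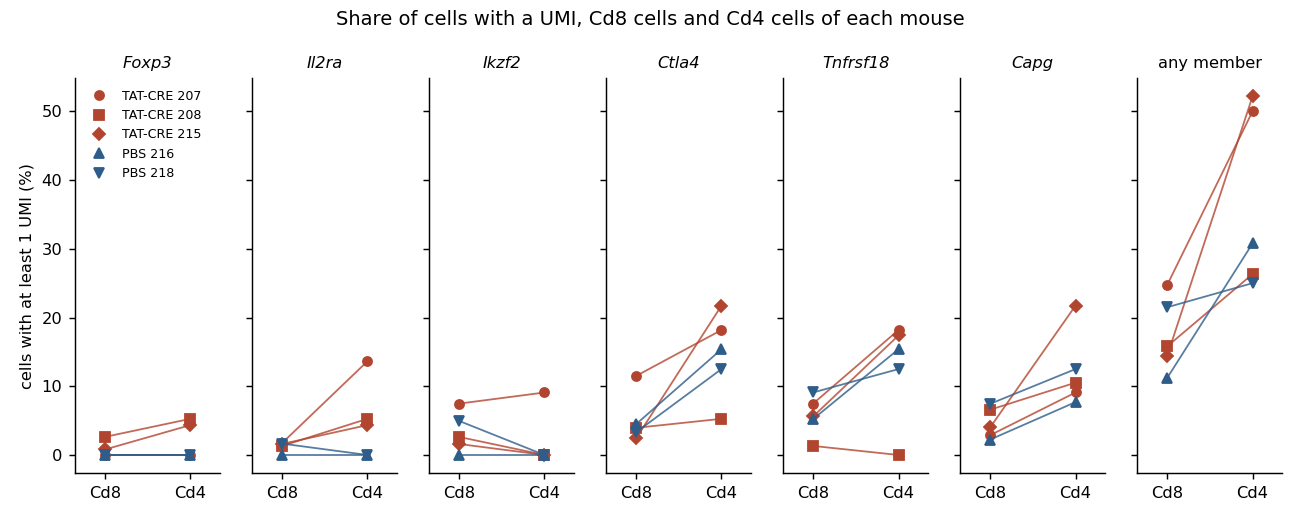
Percent of cells with at least 1 UMI in Cd8 cells (left of each panel) and Cd4 cells (right), unthinned, for each gene and for any of the 6; a line joins the values of 1 mouse, red TAT-CRE and blue PBS. The lines of Ctla4, Capg and any member go up in 5 of 5 mice, while those of Ikzf2 go up in 1 and down in 3.

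Averaged over mice, any of the 6 genes was found in 36.9 ± 13.2% of Cd4 cells and 17.5 ± 5.48% of Cd8 cells (SD, n = 5). The difference of 19.3 ± 13.3 percentage points had an exact two-sided sign-flip permutation p of 0.063, the smallest that 5 mice allow. The same p was reached by Ctla4 (9.49 ± 6.59 points) and Capg (7.68 ± 5.68 points); for Tnfrsf18 the exact permutation p was 0.125, for Il2ra 0.25, for Ikzf2 0.375 and for Foxp3 0.5. These values are not adjusted over the genes. After thinning to 400 UMIs the differences were smaller: 8.83 ± 8.76 points for any member, 2.25 ± 3.27 for Ctla4 and 3.15 ± 3.72 for Capg (SD, n = 5). Each was then higher in 4 of 5 mice, with exact permutation p of 0.125, 0.1875 and 0.125. Without TAT-CRE 215 the thinned difference was 5.66 points for any member, 0.965 for Ctla4 and 1.80 for Capg. With cells of at least 200 UMIs thinned to 200 it was 5.11, 1.18 and 1.75. Mice had 8 to 23 Cd4 cells each, which limits these shares.

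Summed counts of Cd4 and Cd8 cells allowed no test of the members, since none passed the filter on low counts among 728 genes tested. Of these, 2 (0.275%) were called by edgeR with the mouse as a block; 47 had an unadjusted p under 0.05. Both were lower in Cd4 cells: Ccl5, a chemokine of cytotoxic and memory cells, at 715 ± 375 against 3175 ± 774 CPM (log2 fold change -2.17 ± 0.20 SE, edgeR adjusted p = 2.73e-05), and Ly6c2, a surface antigen of memory Cd8 cells, at 66.9 ± 47.0 against 648 ± 164 CPM (-3.21 ± 0.48, adjusted p = 0.00436). Both were lower in 5 of 5 mice. The call of Ly6c2, whose near copy Ly6c1 could share its reads, was lost without TAT-CRE 207 (adjusted p = 0.0511) or without TAT-CRE 215 (0.122). Of the pathway lists 10 genes were tested and none called, Icos at 1.01 being the highest of them.

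The 18 cells with Foxp3 were then set against the 1464 cells without it. Of the 18 cells 9, or 50% (26.0 to 74.0), also had a UMI of another of the 6 genes, against 19.9% (17.9 to 22.1) of the others. Within strata of mouse and depth (5 equal depth bins per mouse), 3.71 such cells were expected if the genes were independent, so the observed number was 2.42 times the expected (1.11 to 4.60, exact Poisson interval). TAT-CRE 215 held 5 of these 9 cells, and TAT-CRE 208 and PBS 218 held 2 each. Il2ra was found in 4 of 18 cells (22.2%, 6.41 to 47.6) against 1.98% of the others, 6.39 times the expected number (1.74 to 16.4). Ikzf2 was found in 4 of 18 against 3.42%, 6.29 times the expected (1.71 to 16.1). Ctla4, Tnfrsf18 and Capg were found in 3 cells each, at 2.64, 2.87 and 2.53 times the expected, with intervals that include 1.

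The cells with Foxp3 were few enough to be read singly. In TAT-CRE 208, 1 cell had 5 Foxp3, 1 Il2ra and 3 Ikzf2 UMIs, and another had 1 Foxp3 and 4 Il2ra. TAT-CRE 215 held both cells with 5 of the 6 genes. One had 3 Foxp3, 17 Il2ra, 1 Ikzf2, 2 Ctla4 and 2 Tnfrsf18 UMIs; the other had 4 Foxp3, 1 Il2ra, 5 Ikzf2, 3 Tnfrsf18 and 3 Capg. In PBS 218, 1 cell had 2 Foxp3, 3 Ikzf2 and 2 Ctla4 UMIs. Cells with several members thus occurred in mice of both groups, and Il2ra with Foxp3 in TAT-CRE 208 and 215.

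Few of the 18 cells had a coreceptor UMI. A Cd4 UMI was found in 2 of them (11.1%, 1.38 to 34.7) against 7.38% of the others, 1.43 times the expected number (0.173 to 5.15), and a Cd8a or Cd8b1 UMI in 3 (16.7%, 3.58 to 41.4) against 44.5%. Cd8 was at 0.469 times the expected number (0.0966 to 1.37). Both intervals include 1. None of the 3 cells with Foxp3 and Cd8 had another of the 6 genes, and each had a single Foxp3 UMI. In 13 of 18 cells neither coreceptor was found. A UMI of at least 1 of 8 T cell markers was found in 16 of the 18.

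**Figure D3:**
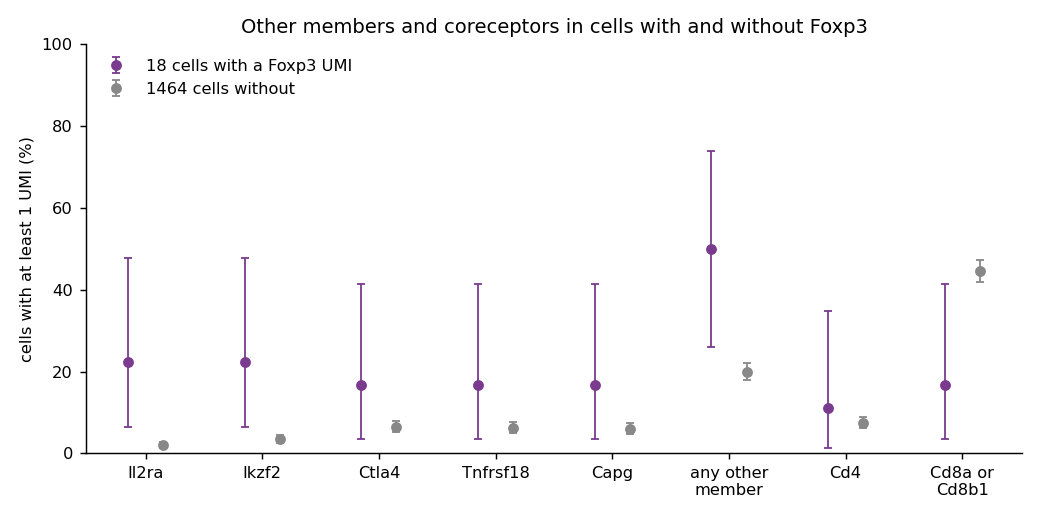
Percent of cells with at least 1 UMI of each gene on the x axis, in 18 cells with a Foxp3 UMI (purple) and 1464 cells without (grey); bars are 95% exact binomial intervals. Il2ra and Ikzf2 reach 22.2% against 1.98% and 3.42%, and Cd8a or Cd8b1 lies at 16.7% against 44.5%.

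Summed per mouse and compared within the 3 mice that had both kinds of cell, Foxp3 cells had lower Ccl5. Of 1831 genes 2 (0.109%) were called by edgeR, both lower; 89 had an unadjusted p under 0.05 and DESeq2 called 5 genes. Ccl5 stood at 1030 against 2159 CPM in TAT-CRE 208, 515 against 2176 in TAT-CRE 215 and 0 against 1669 in PBS 218, lower in 3 of 3 mice (log2 fold change -2.90 ± 0.59 SE, edgeR adjusted p = 0.00185). The call was lost with RLE size factors (adjusted p = 0.0664), DESeq2 (0.0592), no mitochondrial limit (0.0978), no mouse block (0.0665) or comparison cells free of Cd8 UMIs (0.146). The other called gene, Gm42418, which lies in ribosomal RNA sequence, had nearly equal CPM (183850 ± 85528 against 200711 ± 82085, SD, n = 3), and its log2 fold change of -0.85 was -0.36 with RLE size factors (adjusted p = 0.667).

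No member passed in that fit. Ikzf2 stood at 383 ± 52.1 CPM in Foxp3 cells and 44.6 ± 17.7 CPM in the others (SD, n = 3), higher in 3 of 3 mice, with a log2 fold change of 2.46 ± 1.66 (SE, edgeR adjusted p = 0.655). The fold changes of Ctla4, Capg and Tnfrsf18 were 0.56 ± 1.75, 0.54 ± 1.64 and -0.85 ± 2.09, and each changed its sign in some alternatives. Il2ra did not pass the filter, at 589 ± 530 against 31.0 ± 11.5 CPM. The scaling bears on these values: the median log2 fold change of all genes was -1.11, and RLE size factors raised it by 0.48. Among list genes the folate receptor family gene Izumo1r (FR4) stood at 2.34 and Nrp1 (neuropilin), both known from regulatory T cells, at 2.18. Others went the other way: Cish was at -2.65, and 7 of 9 transcription factors were lower, with a median of -3.36. Runx3, Ikzf3, Runx1 and Cbfb, which had no UMI in a cell with Foxp3, were at -8.66, -7.71, -7.60 and -7.54 (SE 4.02 to 4.30). None of the 30 list genes tested was called.

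Across all cells the 6 genes were co-detected beyond the expected number. At least 2 of them were found in 62 cells, 4.18% (3.22 to 5.33), against 39.6 expected within strata of mouse and depth, a ratio of 1.56 (1.20 to 2.00). Of these cells 51 had 2 members, 8 had 3, 1 had 4 and 2 had 5; none had all 6. TAT-CRE 207, 208 and 215 had 12, 8 and 17 such cells against 9.97, 5.20 and 11.4 expected, and PBS 216 and 218 had 8 and 17 against 3.41 and 9.69. In TAT-CRE 207 the ratio was 1.20 (0.622 to 2.10), in TAT-CRE 208 1.54 (0.664 to 3.03) and in TAT-CRE 215 1.496 (0.871 to 2.39), each with an interval that includes 1. It was 2.34 in PBS 216 (1.01 to 4.62) and 1.75 in PBS 218 (1.02 to 2.81). By class, 10.6% of Cd4 cells (4.96 to 19.2), 2.86% of Cd8 cells (1.70 to 4.48) and 4.72% of cells with neither coreceptor had 2 or more. Cells with 2 or more had a median depth of 2430 UMIs, against 1898 with 1 and 1568 with none, which is why depth bins were used.

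All 15 pairs of genes had more shared cells than expected, with ratios of 1.45 to 6.39 and a median of 2.64, and the interval lay above 1 for 7 pairs. The pairs share genes and cells, so they are not independent of each other. Pairs of other genes were not counted, so the share of them above 1 is not known. Among cells with 2 or more members, the 4526 other genes ranked further on had a median ratio of 1.10. Their intervals lay above 1 for 2.50% and below it for 0.199%. The pairs of Foxp3, Il2ra and Ikzf2 with one another had the highest ratios: Il2ra and Ikzf2 shared 7 cells of 4 mice against 1.32 expected (5.32, 2.14 to 10.96). Ikzf2 and Ctla4 shared 13 cells, the most of any pair, against 4.58 expected (2.84, 1.51 to 4.85), from TAT-CRE 207 (6), TAT-CRE 215 (3) and PBS 218 (4). Of cells with Ikzf2 24.1% had Ctla4, and of cells with Ctla4 13.4% had Ikzf2. Il2ra also shared 8 cells with Tnfrsf18 (2.94, 1.27 to 5.80) and 7 with Capg (2.996, 1.20 to 6.17). Ctla4, Tnfrsf18 and Capg, the 3 genes found in most cells, had the lowest ratios with one another, 1.45 to 1.51, and intervals that include 1.

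**Figure D4:**
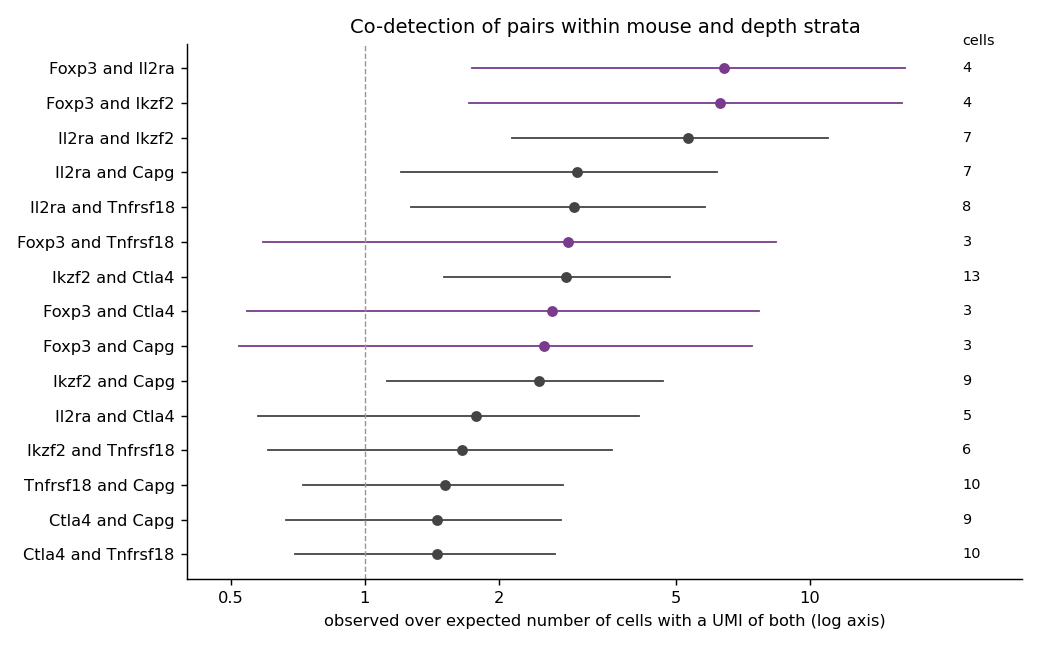
Observed over expected number of cells with a UMI of both genes of a pair, within strata of mouse and depth (log axis; bars are 95% exact Poisson intervals of the observed count, numbers at the right are cells, purple marks pairs with Foxp3). All 15 points lie to the right of 1, from 1.45 to 6.39, and 7 bars stay to the right of it.

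Cells with 2 or more of the 6 genes were also compared with cells with none, within the 5 mice, for all other genes. They had less Ccl5 and Ly6c2 and more Tnfaip3. Of 1731 genes 5 (0.289%) were called by edgeR, 1 higher and 4 lower; 134 had an unadjusted p under 0.05, and DESeq2 called 4. Tnfaip3, which encodes A20, an inhibitor of NF-kB signalling, stood at 1304 ± 1009 against 360 ± 120 CPM (SD, n = 5). By mouse it was 1387 against 288, 2992 against 486 and 979 against 288 in TAT-CRE 207, 208 and 215, and 410 against 494 and 749 against 243 in PBS 216 and 218. It was thus higher in 4 of 5 mice and lower in PBS 216 (log2 fold change 1.46 ± 0.28 SE, edgeR adjusted p = 0.00104). Ccl5 fell by 2.06 on the log2 scale (± 0.22, adjusted p = 1.01e-11), from 2673 ± 660 to 835 ± 660 CPM, and Ly6c2 by 3.08 (± 0.51, adjusted p = 2.86e-05), from 575 ± 58.0 to 98.3 ± 127 CPM, each lower in 5 of 5 mice.

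Cd8a stood at 251 ± 268 against 571 ± 74.6 CPM, lower in 4 of 5 mice, with TAT-CRE 207 at 711 against 702 CPM (log2 fold change -1.75 ± 0.40 SE, edgeR adjusted p = 0.0126). Snord32a, a small nucleolar RNA gene, stood at 2733 ± 921 against 3607 ± 615 CPM (-0.70 ± 0.17, adjusted p = 0.0266). The call of Ccl5 held in each alternative run. Those of Ly6c2 and Tnfaip3 held when each mouse was left out, with edgeR adjusted p of up to 0.000477 and 0.0481. No alternative of this fit left cells with a Cd8 UMI out of the comparison cells. Ccl5 and Ly6c2 were also the genes called between Cd4 and Cd8 cells, and the part of Cd8 cells here was not tested. In cells with 3 or more members all but Ccl5 lost the call, Ly6c2 at -3.43 (adjusted p = 0.233) and Tnfaip3 at 0.01 (0.997). Tnfaip3 also lost it with no mouse block (0.0528) and, at 0.62, without a filter on low counts (0.626), a setting whose scaling lowered all genes by a median of 0.84. The calls of Cd8a and Snord32a were lost with DESeq2 (adjusted p = 0.162 and 0.534), with RLE size factors (0.0987 and 0.712), with no mouse block (0.199 and 0.110) and without TAT-CRE 215 (0.232 and 0.307), and that of Snord32a without PBS 216 (0.180). The median log2 fold change of all genes in this fit was -0.38, and RLE size factors raised it by 0.24.

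**Figure D5:**
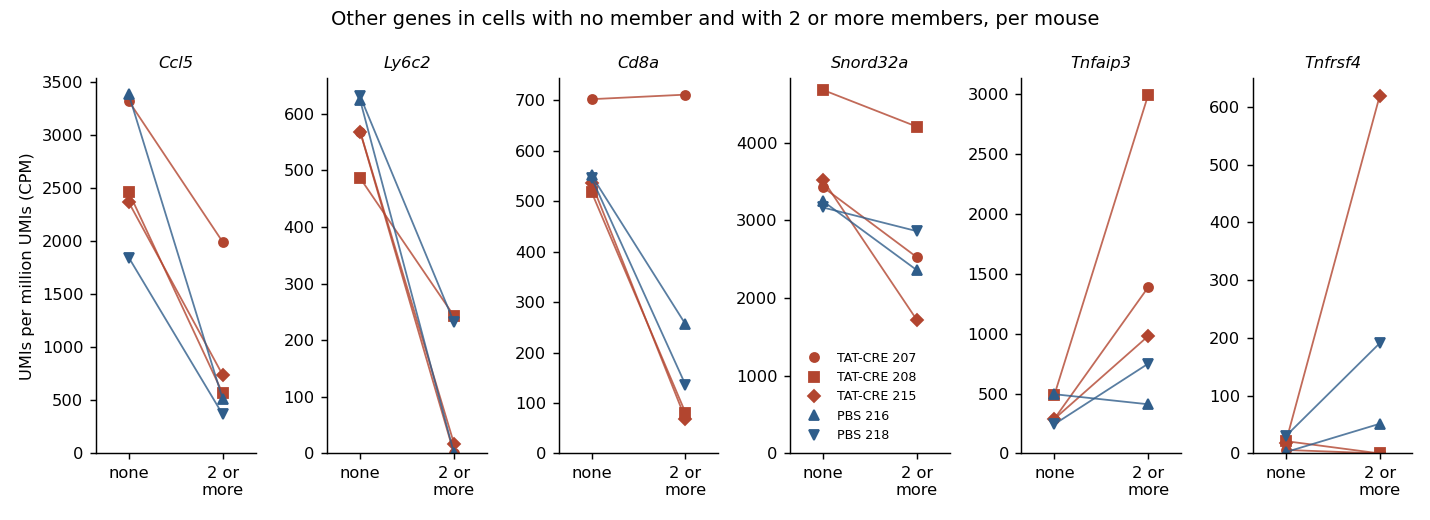
Level in CPM (linear axes that differ between panels) in cells with none of the 6 genes (left) and with 2 or more (right); a line joins the values of 1 mouse, red TAT-CRE and blue PBS. Ccl5 and Ly6c2 go down in 5 of 5 mice, Tnfaip3 goes up in 4 of 5, and Tnfrsf4 is higher on the right in TAT-CRE 215, PBS 218 and PBS 216.

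To find genes distributed like the members, 4526 other genes found in at least 2% of cells were ranked by their observed over expected number of cells among the 62, within the same strata. The median ratio was 1.10. Tnfrsf4, the costimulatory receptor OX40 and a relative of Tnfrsf18, came first: it was found in 16 of the 62 cells against 2.75 expected, a ratio of 5.81 (3.32 to 9.43). Of these cells 9 came from TAT-CRE 215, 6 from PBS 218 and 1 from PBS 216. Of all 43 cells with Tnfrsf4, 67.4% had at least 1 of the 6 genes, against 19.5% of other cells. The next were Nfkbid, an atypical inhibitor of NF-kB (9 cells, ratio 5.15, 2.35 to 9.77), found in each mouse, Gm14336 (4.47), Myd88, an adaptor of Toll-like receptors (3.88), Insl3 (3.85), Clic4 (3.80), Papd4 (3.74) and Reep3 (3.73). These 8 were picked as the highest of 4526, so their ratios, and the shares given for Tnfrsf4, are a description.

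Tnfrsf4 was picked for its excess among the 62 cells, each of which holds several of the 6 genes. An excess with each gene taken singly follows in part from that choice. The ratios that follow have no intervals and are a description, not a further test. Tnfrsf4 was found with Foxp3 in 5 cells (6.67 times the expected number), Ikzf2 in 9 (5.07) and Il2ra in 7 (4.69). It was found with Tnfrsf18 in 13 (3.57), Ctla4 in 10 (3.27) and Capg in 10 (3.06). TAT-CRE 215 and PBS 218 held 18 and 14 of its 43 cells, and the other mice 3 or 4 each. Its relative Tnfrsf9 was found in 5 of the 62 cells, 8.06%, and in 0.171% of cells with none of the 6 genes.

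The lists were chosen with earlier results of these data known, so shares over list genes are a description. Over all 4526 genes 2.50% had an interval above 1. Of the 45 list genes ranked, 5 (11.1%) had an interval above 1 and none one below 1, with a median ratio of 1.23. Beside Tnfrsf4 these were Izumo1r (8 cells, ratio 2.84, 1.23 to 5.60), Gata3, a transcription factor of helper and of tissue regulatory T cells (14 cells, 2.33, 1.27 to 3.90), Cd5, an inhibitor of receptor signalling (12 cells, 2.18, 1.13 to 3.81) and Capza2, an actin-capping subunit (12 cells, 2.37, 1.23 to 4.15). Nrp1 (2.13), Pdcd1 (2.01) and Tigit (1.91), the last pair encoding inhibitory receptors, had intervals that include 1. So did Foxo1 and Cbfb, factors of resting and regulatory T cells, at 0.393 and 0.409. The interleukin 2 receptor chains Il2rb and Il2rg were near the median of all genes, at 1.23 and 1.08. In the summed fit none of the 30 list genes tested was called, and Tnfrsf4 was not among those tested. Izumo1r stood at 1.78 (edgeR adjusted p = 0.660), Gata3 at 1.43 (0.675) and Cd5 at 1.15 (0.806). Of 9 transcription factors tested there 7 were lower, with a median log2 fold change of -1.06 against -0.38 over all genes. Among them were Ikzf3 at -2.36, Cbfb at -2.13, Foxo1 at -2.03 and Lef1 at -1.87. Among suppressive effectors Il10 was scarce, with a UMI in 1 cell of 1482, one with none of the 6 genes. Areg, Ebi3 and Lrrc32 were scarce too, in 0.427%, 0.171% and 0.256% of cells with none of the 6 genes. In cells with 2 or more members their shares were 1.61%, 3.23% and 4.84%, that is 1, 2 and 3 cells. Others were found more often, among them Lgals1 in 17.5%, Gzmb in 6.82%, Il10ra in 3.44% and Tgfb1 in 3.37% of kept cells.

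Markers of other cells were read beside these results, because Capg is also a macrophage gene. Of 13 myeloid markers 5 (Lyz2, Csf1r, C1qb, Flt3 and Siglech) were at 0 UMIs. The list summed to 35.9 to 102 CPM in TAT-CRE and 57.7 to 81.0 in PBS mice, most of it Cst3, which was found in 7 of 91 cells with Capg, 7.69%, and 4.39% of all cells. A myeloid marker was found in 16.1% of the 62 cells with 2 or more members and 4.27% of cells with none; its part in the results was not tested. Of 4 type 2 innate lymphoid markers Il5 and Il13 were at 0, and Gata3 gave most of the list's 24.2% against 6.14%. The list ranged from 56.3 to 112 CPM in TAT-CRE and 48.6 to 187 in PBS mice. T cell markers were found in 91.9% and 91.0% of these cells, Cd8a or Cd8b1 in 29.0% and 45.4%, and the CD4 list, which holds Icos, in 32.3% and 15.3%. Over pooled cells the CD4 list, Cd8 and depth thus moved with the number of members per cell. By mouse, CPM of Cd4 itself was higher with 2 or more members than with none in TAT-CRE 207 (1067 against 82.0) and TAT-CRE 215 (223 against 48.7). In TAT-CRE 207, 1 cell held 18 of these 30 Cd4 UMIs. It was lower in TAT-CRE 208 (0 against 124), PBS 216 (51.3 against 90.0) and PBS 218 (13.6 against 51.3).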

How the data were processed

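The authors deposited, for each of 5 mice, a table of unnormalized UMI counts for every gene in each well; bcl2fastq 2.15.0.4 and the genome build mm10 are named in the submitters' processing notes. Not given in the sources used here: aligner, annotation and use of strand. A deposited column of counts gives the cells sorted per well, per the file headers (380 wells with 1 cell and 4 empty wells per plate). Every mouse had a plate, an amplification batch and a library of its own, so these cannot be told apart from the mouse.

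Counts were summed per mouse, or per mouse and class of cells, and fitted across all genes that passed filterByExpr with edgeR 4.0.16 (TMM, quasi-likelihood test, Benjamini-Hochberg adjustment, threshold 0.05, R 4.3.3). Mouse was a block where classes were compared. DESeq2 1.42.0, RLE size factors and no filter were alternatives, as were other cell limits (at least 200 UMIs, no mitochondrial limit), leaving out 4 ribosomal RNA genes, other class definitions and each mouse left out. CPM are counts per 1000000 UMIs of the summed cells. Thinned shares are exact expected shares of cells with a UMI at 400 UMIs (SciPy 1.17.1). Groups were compared by exact permutation over mice, classes by exact sign-flip permutation. Expected co-detection assumes independence within mouse and 5 depth bins, and intervals are 95% Clopper-Pearson or Poisson. Doublets were not called: each well was labelled with its number of cells. Fits were tested on simulated data. Between TAT-CRE and PBS mice 7.87% of 2-fold and 36.4% of 4-fold changes were recovered. For Cd4 against Cd8 cells these shares were 39.8% and 89.8%. They were 0% and 3.70% for Foxp3 cells and 3.85% and 41.3% for cells with 2 or more members. A gene that was not called can therefore have changed by such folds.

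The 6 genes, the lists and the rules were chosen with earlier results of these data known. Named are the 6 members, up to 8 called genes per direction by p (the 3 of smallest p per direction where none was called), up to 6 called genes per list, and the 8 genes most like the members.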

Additional observations from a re-analysis of the deposited data

Results flagged for a closer look

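The 6 genes also had UMIs in data left out of the comparisons, the 195 wells above the mitochondrial limit (median 1046 UMIs). Foxp3 was found in 4 of these wells, 2.05% (0.562 to 5.17, exact binomial interval), with 1 such well in TAT-CRE 207, a mouse with no Foxp3 in its kept cells. Il2ra was found in 2.56%, Ikzf2 and Ctla4 in 3.08% each, Tnfrsf18 in 3.59% and Capg in 5.64%. Any of the 6 was found in 16.9% of these wells (11.9 to 22.9), and in 20.9% of kept cells. TAT-CRE 215 held 14 of these 33 wells, TAT-CRE 208 held 8, TAT-CRE 207 held 6, PBS 216 held 4 and PBS 218 held 1.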

How the results depend on the processing

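The number of genes called moved with the settings. Between TAT-CRE and PBS mice it was 0 in edgeR, 1 with DESeq2 and 8 without a filter on low counts, and 0 whichever mouse was left out. Between Cd4 and Cd8 cells it was 2, with 4 by DESeq2, 57 without a filter and 1 to 3 when a mouse was left out. For Foxp3 cells it was 2, against 5 with DESeq2, 27 without a filter, 1 without ribosomal RNA genes, 2 to 20 when a mouse was left out (20 without TAT-CRE 215), and 0 with RLE size factors, with no mitochondrial limit, with no mouse block and with comparison cells lacking Cd8 UMIs. For cells with 2 or more members it was 5, against 3 with RLE size factors, 80 without a filter, 8 with no mitochondrial limit, 2 with no mouse block, 1 for 3 or more members and 3 to 11 when a mouse was left out (8 without TAT-CRE 207, 10 without TAT-CRE 208, 3 without TAT-CRE 215 and 11 without PBS 218). Without a filter, scaling lowered the genes of these class comparisons by a median of 0.81, 1.10 and 0.84 on the log2 scale; otherwise the cause was not tested.

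Signs changed for values that passed no test. The log2 fold change of Ikzf2 between groups (-0.19) was 0.38 with no mitochondrial limit and -0.56 to 0.35 when a mouse was left out. The difference in its thinned share (-0.0023 percentage points) was 0.26 with no mitochondrial limit and -0.377 to 0.294 when a mouse was left out. That of Capg (0.215) was -0.314 unthinned and -0.23 to 0.841 when a mouse was left out. In Foxp3 cells Ctla4 was at -0.56 without a filter, -0.068 with no mitochondrial limit and -0.94 to 0.94 when a mouse was left out, Capg at -0.57 without a filter and -0.65 to 1.12 when a mouse was left out, and Tnfrsf18 at 0.012 with no mitochondrial limit and 0.42 with no mouse block. The shares of cells with any member kept their direction in every alternative run, and the co-detection ratio was 1.602 to 1.668 in its 3 alternatives. All 15 pairs stayed above 1 in those 3.

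Depth limits the rest: 18 cells had Foxp3 and 10 of them by a single UMI.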
